A study of Mus musculus with 4 samples.

Results

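The genes examined here encode 10 enzymes of sphingolipid and ganglioside synthesis: Sptlc1, Sptlc2, Ugcg, B4galt5, B4galt6, St3gal5, St8sia1, B4galnt1, St3gal1 and St3gal2. They were taken by symbol, and all 10 were found once each among the 32285 genes of the deposited count matrices. Their transcripts were followed in single cells of MC38 tumors, a mouse colon adenocarcinoma line grown under the skin of C57BL/6 mice. The tumor cells were either wild type (WT) or carried a homozygous A159V knock-in at the endogenous Rac1 locus, made by CRISPR-Cas9. Each kind of tumor was treated with an isotype IgG or with an antibody to PD1, giving 4 groups of 1 library each, named here by genotype and treatment, such as WT IgG or A159V anti-PD1. The mutant line was expanded from single edited cells, so the allele and the clone cannot be told apart. The transcript counts come from 3′ ends and do not show the edited codon, so the genotype labels were not checked by it. CD45+ and CD45− cells were split on magnetic beads and then pooled again in a fixed proportion, so the number of cells of a type is not a count of the tumor's content. The study asked whether A159V changes glycosphingolipid synthesis in tumor cells.

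Sphingolipid synthesis starts when serine palmitoyltransferase joins serine to palmitoyl-CoA, and it leads to ceramide. Glucosylceramide synthase adds glucose to ceramide, lactosylceramide synthases add galactose, and sialyltransferases then cap the sugar to make gangliosides, of which GM3 is the first and GD3, GM2 and GD2 follow. Gangliosides sit in the outer leaflet of the plasma membrane, where they influence receptor signaling, and several are known as tumor antigens. Sptlc1 and Sptlc2 encode the core subunits of serine palmitoyltransferase, and Ugcg encodes glucosylceramide synthase. B4galt5 and B4galt6 encode the lactosylceramide synthases, St3gal5 encodes GM3 synthase, St8sia1 GD3 synthase and B4galnt1 the GM2/GD2 synthase. St3gal2 adds sialic acid to the terminal galactose of more complex gangliosides, and St3gal1 acts mainly on O-linked glycans of proteins.

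All 10 are protein-coding genes, and no listed gene overlapped any of them on the same strand. In the GRCm38 build, B4galt5 (ENSMUSG00000017929) spans chr2:167298444-167349183 on the minus strand, Sptlc1 (ENSMUSG00000021468) chr13:53332748-53377397 on the minus strand, and St3gal1 (ENSMUSG00000013846) chr15:67102875-67176830 on the minus strand. Ugcg lies at chr4:59189257-59222833 on the plus strand and B4galnt1 at chr10:127165225-127172330 on the plus strand. St3gal5, St8sia1 and B4galnt1 each have 1 gene on the opposite strand (4933431G14Rik, Gm7457 and Slc26a10). The promoters of B4galt5 and Sptlc1 are shown because these members lay on opposite sides of 0 between the genotypes in every tumor state described below. Each line gives the 250 bases before the RefSeq start (GRCm38.p6), 5′ to 3′ on the gene's strand, at chr2:167349179-167349428 for B4galt5 and chr13:53377362-53377611 for Sptlc1. Capitals mark matches, on either strand, to the GC box GGGCGG or the CCAAT box CCAAT.
B4galt5: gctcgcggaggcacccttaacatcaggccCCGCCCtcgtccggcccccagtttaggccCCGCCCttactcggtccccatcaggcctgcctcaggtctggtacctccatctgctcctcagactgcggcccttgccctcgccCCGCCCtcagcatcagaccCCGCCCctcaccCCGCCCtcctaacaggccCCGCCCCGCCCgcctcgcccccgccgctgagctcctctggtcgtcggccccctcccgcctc
Sptlc1: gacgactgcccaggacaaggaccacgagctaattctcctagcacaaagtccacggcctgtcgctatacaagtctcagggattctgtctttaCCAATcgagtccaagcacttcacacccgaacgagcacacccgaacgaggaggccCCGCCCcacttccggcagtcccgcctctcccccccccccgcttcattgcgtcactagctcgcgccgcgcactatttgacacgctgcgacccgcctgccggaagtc
The B4galt5 window was 73.2% G or C and held 7 GC boxes, of which 1 pair overlapped. The Sptlc1 window was 61.6% G or C and held 1 GC box and 1 CCAAT box. Among 32851 promoter windows of this length, the median was 52.4% G or C, 32.7% held a GC box, 33.8% held a CCAAT box and 135 (0.411%) held at least 7 GC boxes. The E-box CACGTG (6.02% of windows), the cyclic AMP response element TGACGTCA (1.55%) and the TATA box TATAAA (12.4%) had no match in the member windows. Windows were used for 6 members (Sptlc1, Sptlc2, Ugcg, B4galt5, St3gal5 and St8sia1). These are letter matches only, and binding at them was not measured.

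The libraries held 7430 to 9311 barcodes with median depths of 3225 to 4088 unique molecular identifiers (UMIs, each counting 1 captured transcript), and 6466 to 8248 cells per library were analyzed. Clustering gave 21 clusters, which were named by marker genes as tumor-like, macrophage-like, T-like, NK-like, dendritic-like, neutrophil-like, stromal-like and smaller classes. The tumor-like name rests on Prl2c2 (201 to 597 UMIs per 1000000, CPM), Prl2c3 (38.6 to 465 CPM) and Rhox5 (451 to 1101 CPM), because the keratins Krt8, Krt18, Krt7 and Krt19 were at 0.405 CPM or less and Epcam at 0.0469 CPM or less in these cells. WT tumors gave 2017 tumor-like cells with IgG and 45 with anti-PD1, and A159V tumors gave 2795 and 2079. WT anti-PD1 stood apart: it held 1583 stromal-like cells against 143 to 182 elsewhere, and 81.0% of its macrophage-like cells were in 1 cluster (cluster 5, led by Ccl8, Mrc1 and Arg1) that held 2.89% to 8.51% of them in the others. Pairs of libraries shared 13 to 22 barcodes. With 1 library per group no test between groups was possible. Levels are summed UMIs of a class as CPM with exact 95% Poisson intervals, ratios are log2 with 1 CPM added to both sides, and all intervals cover counting error only, not the spread between tumors. A gene counts below as higher or lower when its ratio passes 1.5-fold and its level is at least 5 CPM in 1 of the groups.

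The enzymes were spread unevenly over the cells of these tumors. Over the 30 profiles (a class in a library) with at least 50 cells, Ugcg ran from 19.7 CPM in tumor-like cells of WT IgG to 1269.8 CPM in NK-like cells of WT anti-PD1, a 64.4-fold span. B4galnt1 spanned 123-fold, from 2.19 CPM (0.597 to 5.61) in endothelial-like cells to 269 CPM in the same NK-like profile. At the first step the spans were smaller, 8.08-fold for Sptlc1 (6.37 to 51.5 CPM) and 5.82-fold for Sptlc2 (32.2 to 187 CPM), and endothelial-like cells were the highest profile for both. Endothelial-like cells gave a profile in WT anti-PD1 only, with 176 cells against 2 in each of the other libraries. Tumor-like cells were the lowest class for Ugcg, at 19.7 to 25.5 CPM in the libraries with at least 50 of them.

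B4galt5 was highest in NK-like cells (263 to 334 CPM) and macrophage-like cells (264 to 317 CPM), whose ranges overlapped, and dendritic-like and T-like cells came next at 181 to 249 and 185 to 231 CPM. Its homolog B4galt6 was at 51.4 to 128 CPM in macrophage-like cells and at 0 to 2.30 CPM in T-like cells. GM3 synthase, St3gal5, was highest in dendritic-like cells (41.7 to 94.1 CPM) and lowest in NK-like cells (0 to 2.68 CPM). Its range in neutrophil-like cells, 13.1 to 51.0 CPM, overlapped that of dendritic-like cells. St8sia1, which makes GD3 from GM3, was found in dendritic-like (48.8 to 101 CPM), T-like (21.6 to 31.4 CPM) and macrophage-like cells (6.13 to 16.8 CPM). It stayed under 1 CPM in NK-like and stromal-like cells. The 2 sialyltransferases of the same family differed in place: St3gal1 led in macrophage-like (118 to 180.3 CPM) and dendritic-like cells (110.3 to 165 CPM) and in the stromal-like cells of WT anti-PD1 (191 CPM), whereas St3gal2 led in stromal-like cells (57.5 to 114 CPM) and was at 5.93 to 8.32 CPM in macrophage-like cells.

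**Figure D1:**
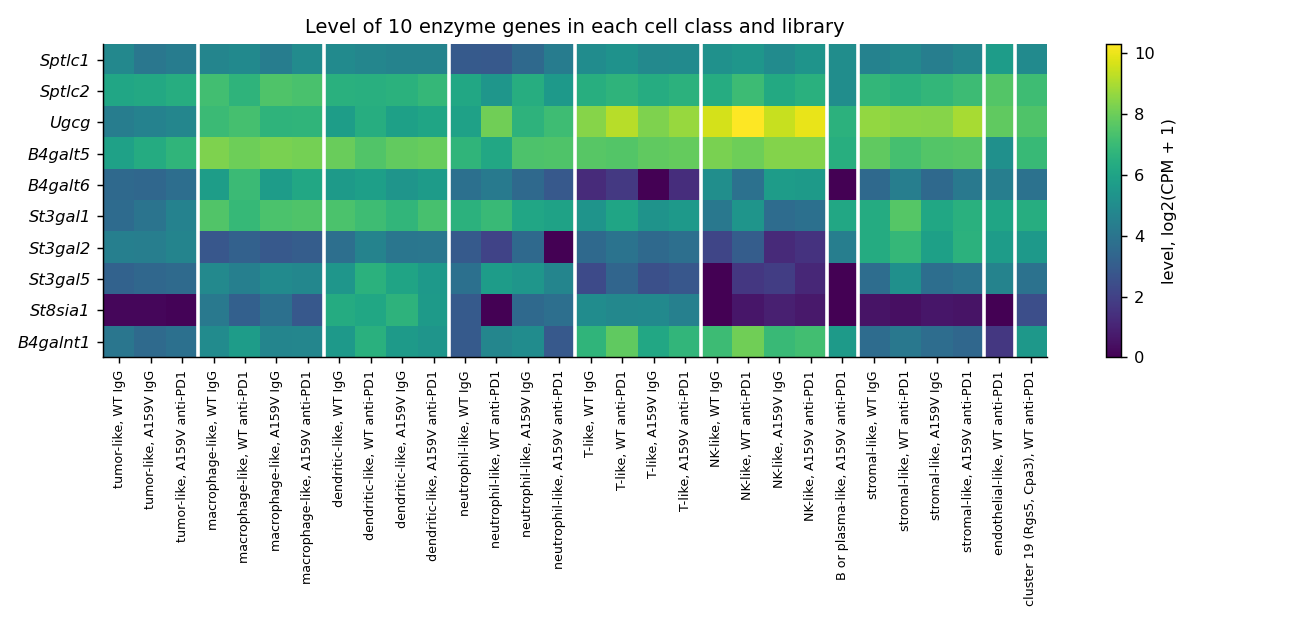
Heat map of the level of each of the 10 enzymes (rows, colored by log2(CPM + 1)) in each class and library with at least 50 cells (columns). Ugcg is highest in the NK-like, T-like and stromal-like columns, St8sia1 in the dendritic-like columns, and tumor-like columns are low for most enzymes.

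Tumor-like cells carried transcripts of 9 of the enzymes at 5 CPM or more. The WT anti-PD1 levels below rest on 45 cells, and their order beside the other libraries is a description only. Serine palmitoyltransferase was split by subunit. Sptlc1 was at 26.9 CPM (25.6 to 28.2) with IgG and 38.02 (30.7 to 46.5) with anti-PD1 in WT tumors and 16.1 (15.3 to 16.97) and 18.9 (17.99 to 19.8) in A159V tumors, so both A159V libraries lay below both WT libraries with intervals that did not overlap. Sptlc2 was at 68.4 CPM (IgG) and 62.3 (anti-PD1) in WT and 74.7 and 85.8 in A159V, highest in A159V anti-PD1. Ugcg was at 19.7 CPM (18.6 to 20.8) and 29.5 (23.1 to 37.1) in WT tumors given IgG and anti-PD1, and 23.1 (22.1 to 24.1) and 25.5 (24.4 to 26.5) in A159V tumors, a range in which the WT libraries lay at both ends.

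B4galt5, which makes lactosylceramide, was at 58.3 CPM (56.4 to 60.2) with IgG and 82.9 (71.96 to 95.1) with anti-PD1 in WT tumors and 80.5 (78.6 to 82.4) and 106 (104 to 108) in A159V tumors. WT IgG was the lowest and A159V anti-PD1 the highest, and the interval of the 45 cells of WT anti-PD1 overlapped that of A159V IgG. B4galt6 was at 10.4 CPM (IgG) and 13.3 (anti-PD1) in WT and 9.99 and 12.1 in A159V, close together in all 4 libraries. St3gal5, at the entry to the gangliosides, was at 8.57 CPM and 10.9 in WT tumors given IgG and anti-PD1, and 9.91 and 10.98 in A159V tumors, with a spread as narrow. St8sia1 was close to absent: 8, 1, 11 and 7 UMIs were counted in the same order, which is 0.125 CPM with IgG and 0.405 with anti-PD1 in WT tumors and 0.124 and 0.0778 in A159V tumors. B4galnt1 was at 15.6 CPM (14.7 to 16.6) with IgG and 27.9 (21.7 to 35.3) with anti-PD1 in WT, and 10.7 (10.1 to 11.4) and 12.8 (12.1 to 13.6) in A159V, again with both WT libraries above both A159V libraries.

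St3gal1 was at 11.3 CPM (10.5 to 12.1) and 15.4 (10.9 to 21.1) in WT tumors given IgG and anti-PD1, and 14.5 (13.7 to 15.3) and 22.9 (21.95 to 23.9) in A159V tumors, lowest in WT IgG and highest in A159V anti-PD1. St3gal2 was at 20.99 CPM with IgG and 34.4 with anti-PD1 in WT tumors and 20.2 and 24.5 in A159V tumors. Of the 45 tumor-like cells of WT anti-PD1 only levels are given and no ratio, because they are fewer than 50, and their median depth was 54311 UMIs against 29604 for WT IgG, and 30751 and 42227 for the A159V libraries. The median share of mitochondrial UMIs in tumor-like cells was 4.28%, 2.90% and 3.58% in WT IgG, A159V IgG and A159V anti-PD1, and its part in the levels was not tested.

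**Figure D2:**
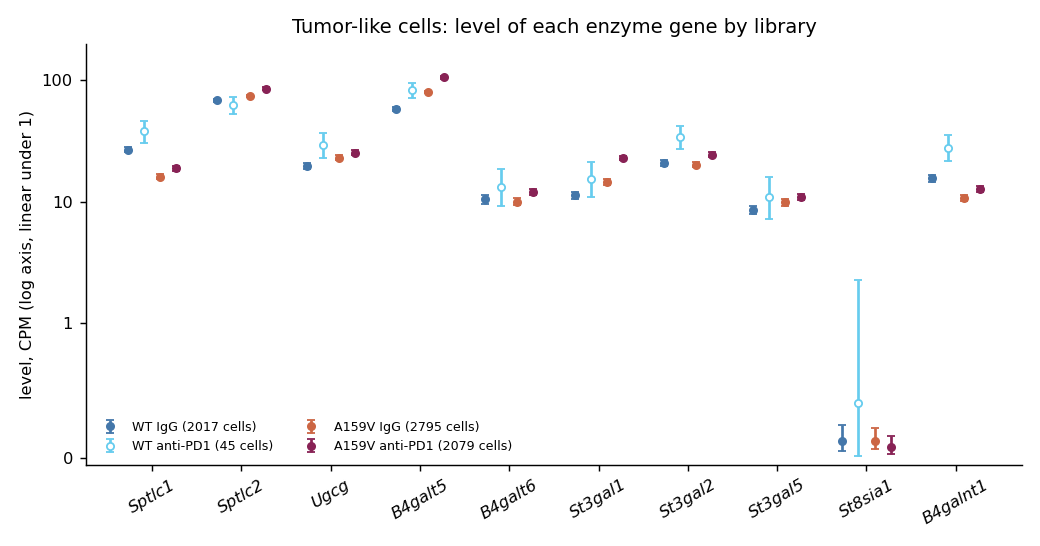
Level of each enzyme in tumor-like cells (CPM, vertical axes) in each of the 4 libraries, with exact 95% Poisson intervals that cover counting error only. B4galt5 and St3gal1 are lowest in WT IgG and highest in A159V anti-PD1, and Sptlc1 and B4galnt1 are lower in both A159V libraries than in both WT libraries. WT anti-PD1 rests on 45 cells.

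Between A159V IgG and WT IgG the tumor-like cells differed in opposite directions along the pathway. B4galt5 was 1.37-fold as high in A159V, a log2 ratio of 0.46 (0.40 to 0.52), and St3gal1 had a ratio of 0.34 (0.22 to 0.46) and Ugcg of 0.22 (0.12 to 0.31). Sptlc1 was 0.614-fold as high in A159V, a log2 ratio of -0.70 (-0.80 to -0.61), and B4galnt1 had a ratio of -0.50 (-0.62 to -0.38). The ratios of the other members lay between -0.06 for B4galt6 and 0.19 for St3gal5. Of the 9 members that passed the minimum level, 0 were past 1.5-fold higher, where 5.94% of the 10453 genes tested were, and 1, Sptlc1, was past 1.5-fold lower, where 12.3% were. Of all 10 members, 5 lay above 0 and 5 below, and their median was 0.06 against -0.04 over all genes tested. When each library was clustered on its own, or cells were assigned by a gate on marker UMIs, 2 members were past 1.5-fold higher in place of 0. The share of all genes under these settings is not given, so these counts cannot be set beside one.

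Under anti-PD1 in A159V tumors most enzymes were slightly higher. St3gal1 went from 14.5 to 22.9 CPM, a log2 ratio of 0.63 (0.53 to 0.72) or 1.54-fold, with an interval that spans the 1.5-fold line. B4galt5 went from 80.5 to 106 CPM, a ratio of 0.39 (0.35 to 0.44). The others lay between -0.06 for St8sia1 and 0.27 for St3gal2. St3gal1 was the 1 member past 1.5-fold higher, where 0.674% of genes were, and 0 members were past it lower, where 0.545% were. Of the 10 members, 9 lay above 0, with a median of 0.23 against 0.08 over all 10095 genes tested. Both comparisons share the A159V IgG library. St3gal1 no longer passed 1.5-fold with predicted doublets kept or with median-of-ratios scaling, at ratios of 0.57 and 0.57.

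**Figure D3:**
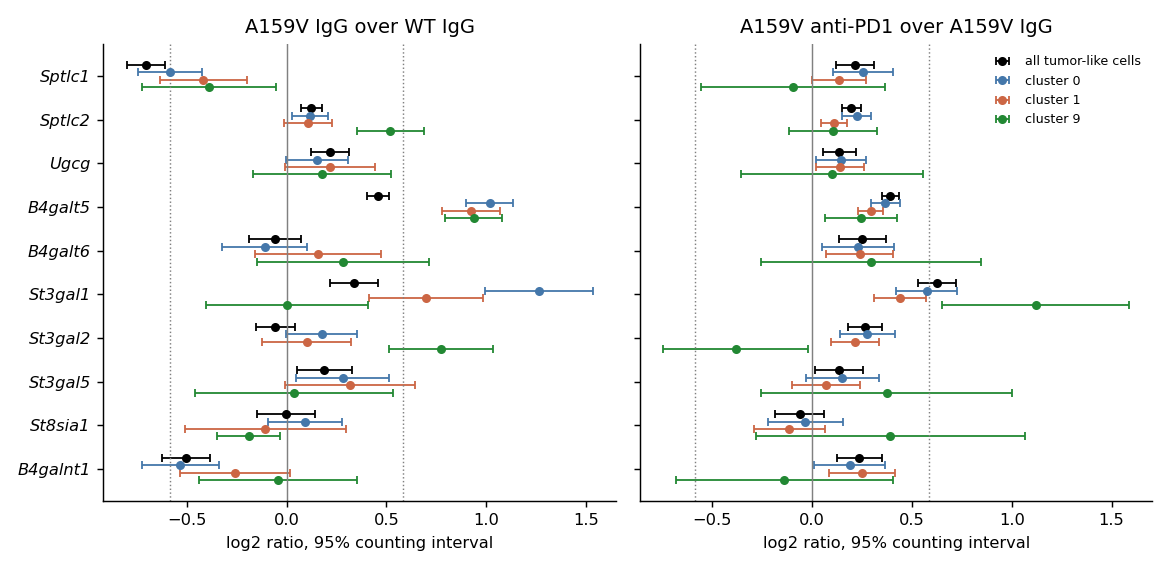
Log2 ratio of each enzyme in tumor-like cells for A159V IgG over WT IgG and for A159V anti-PD1 over A159V IgG, with 95% counting intervals and lines at 0 and at 1.5-fold in each direction. All tumor-like cells and the 3 tumor-like clusters described below (0, 1 and 9) are drawn separately. For all tumor-like cells, Sptlc1 lies past the lower line in the first comparison and St3gal1 on the upper line in the second. Within clusters, Sptlc1 passes the lower line in the first comparison in cluster 0 only, and B4galt5 passes the upper line in each cluster.

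The tumor-like cells fell into 3 clusters, and the mix of these differed between the libraries. Cluster 0, led by Prl2c2, Shisal2b and Wfdc2, held 26.6% of the tumor-like cells of WT IgG, 55.6% of those of A159V IgG and 38.0% of those of A159V anti-PD1. Cluster 1, with 1688 to 2163 CPM of interferon-response genes, held 13.7%, 39.3% and 57.5% in the same order. In these libraries the same genes summed to 1587 to 2575 CPM in cluster 9. Cluster 9, led by Sema3a and Sox9 and with 520 to 1109 CPM of collagen VI genes, held 59.7%, 5.15% and 4.43%, and no tumor marker was among its 10 leading genes. Clusters were formed with variable genes chosen without the 10 members, the other sphingolipid genes listed below and mitochondrial genes. These shares describe the libraries, and no difference between them was tested.

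Within each cluster B4galt5 differed more than in the class as a whole. In cluster 0 it was at 33.7 CPM in WT IgG and 69.3 CPM in A159V IgG, a log2 ratio of 1.02 (0.90 to 1.13). In cluster 1 it was at 47.3 CPM in WT IgG and 90.8 CPM in A159V IgG, a ratio of 0.93 (0.78 to 1.07), and in cluster 9 at 74.7 CPM in WT IgG and 144 CPM in A159V IgG, a ratio of 0.94 (0.79 to 1.08). A159V was thus past 1.5-fold higher in all 3 clusters, whereas the whole class gave 0.46, with cluster 9, where the gene was highest in each genotype, making up most of WT IgG only. In A159V anti-PD1 the levels were 89.7, 112 and 171 CPM in clusters 0, 1 and 9.

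St3gal1 gave unlike ratios in the 3 clusters, with intervals for clusters 0 and 9 that did not overlap. In cluster 0 it was at 4.35 CPM in WT IgG and 11.8 CPM in A159V IgG, a log2 ratio of 1.26 (0.99 to 1.53), and in cluster 1 at 10.8 CPM in WT IgG and 18.2 CPM in A159V IgG, a ratio of 0.70 (0.41 to 0.98). In cluster 9 it was at 15.2 CPM in WT IgG and 15.3 CPM in A159V IgG, a ratio of 0.00 (-0.40 to 0.41). Under anti-PD1 in A159V the ratios were 0.57 (0.42 to 0.73), 0.44 (0.31 to 0.57) and 1.12 (0.65 to 1.59) in clusters 0, 1 and 9, with levels of 18.1, 25.05 and 34.4 CPM. Cluster 9 rests on 144 cells of A159V IgG and 92 of A159V anti-PD1.

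Sptlc1 lay below 0 in all 3 clusters, at -0.59 (-0.75 to -0.42), -0.42 (-0.63 to -0.20) and -0.39 (-0.72 to -0.05), and passed 1.5-fold lower only in cluster 0. B4galnt1 was at -0.53 (-0.72 to -0.34), -0.26 (-0.53 to 0.02) and -0.04 (-0.44 to 0.35). St3gal2, close to 0 in the class, was at 24.3 CPM in WT IgG and 42.2 CPM in A159V IgG in cluster 9, a ratio of 0.77 (0.52 to 1.03), against 0.18 and 0.10 in clusters 0 and 1. By cluster, 2 members were past 1.5-fold higher in each of the 3, where 5.78%, 5.2% and 8.14% of genes were. Members past 1.5-fold lower numbered 1, 0 and 0, where 5.26%, 7.27% and 5.39% of genes were.

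**Figure D4:**
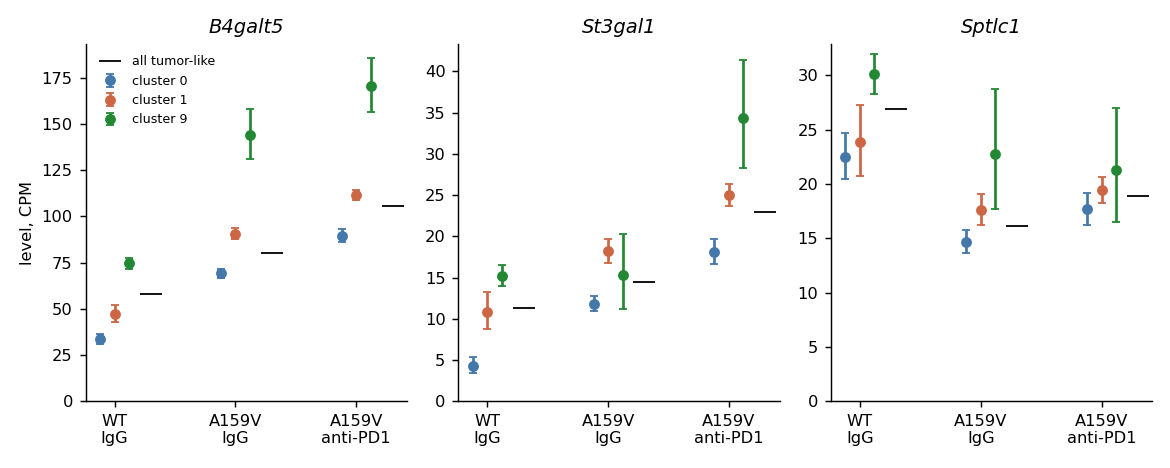
Level (CPM) of selected enzymes within each of the 3 tumor-like clusters in WT IgG, A159V IgG and A159V anti-PD1, with exact 95% Poisson intervals. B4galt5 is higher in both A159V libraries than in WT IgG within clusters 0, 1 and 9, and Sptlc1 is lower.

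The same members were followed cell by cell at an even depth of 1500 UMIs per tumor-like cell, for which 12, 9 and 20 cells were too shallow in WT IgG, A159V IgG and A159V anti-PD1. B4galt5 was detected in 10.4% (9.12 to 11.8), 12.1% (10.9 to 13.4) and 16.5% (14.9 to 18.1) of the cells, with exact binomial intervals. St3gal1 was detected in 1.60%, 2.51% and 3.01%, and Sptlc1 in 3.64%, 2.15% and 2.57%. The order of the libraries was that of the levels. At 20000 UMIs per cell, a depth chosen after the data were seen and reached by 1458, 2168 and 1796 cells, B4galt5 was in 58.3%, 70.6% and 80.8%, St3gal1 in 16.1%, 22.5% and 33.6%, and Sptlc1 in 42.1%, 27.3% and 31.7%. Without thinning, Sptlc1 was in 51.6%, 38.1% and 51.6%, and B4galt5 in 72.5%, 81.6% and 90.7%. At 1500 UMIs St8sia1 was seen in 1 cell of each library, which does not separate it from stray RNA.

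In the libraries with at least 50 tumor-like cells, RNA of other cells in the tumor-like profiles was small beside these levels. Macrophage markers in tumor-like cells were at 0.249% to 0.356% of their level in macrophage-like cells of the same library. If all of this were carried over, it would bring at most 0.980 CPM of B4galt5 and 0.612 CPM of St3gal1. Stromal markers, summed over 8 genes, were at 447.7 CPM in tumor-like cells of WT IgG, 121.8 for A159V IgG and 94.4 for A159V anti-PD1, at most 0.789% of the stromal-like level, equal to at most 1.77 CPM of B4galt5. In WT IgG the same share would bring 3.17 of the 19.7 CPM of Ugcg. When tumor-like cells with a UMI of Ptprc, Col1a1, Col1a2, Col3a1 or Dcn were left out, 476 cells of WT IgG, 970 of A159V IgG and 529 of A159V anti-PD1 remained, and the A159V IgG over WT IgG ratio was 0.56 for B4galt5 and -0.58 for Sptlc1, which then missed the 1.5-fold line.

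Set beside the macrophage-like cells of the same library, tumor-like cells were low in most of these enzymes. Of the 10 members, 8 (WT IgG), 8 (A159V IgG) and 9 (A159V anti-PD1) were past 1.5-fold lower, where 28.5%, 31.4% and 30.1% of genes were. The 1 member past it higher in each library was St3gal2, with log2 ratios of 1.67, 1.53 and 1.62, where 47.7%, 46.3% and 46.8% of genes were. The members' medians were -1.90, -1.68 and -1.29 against 0.49, 0.41 and 0.44 over all genes tested. St3gal1 was at -3.88, -3.42 and -2.89, B4galt5 at -2.42, -1.88 and -1.40, and Sptlc1 at 0.12, -0.27 and -0.65. Macrophage-like cells had median depths of 2003.5 to 3058 UMIs in these libraries, far below those of tumor-like cells, and the part of depth was not tested.

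In lymphocytes Ugcg and B4galnt1 stood out. Ugcg in NK-like cells was at 799 CPM (IgG) and 1269.8 (anti-PD1) in WT and 696 and 1012 in A159V, and both anti-PD1 libraries lay above both IgG libraries. For anti-PD1 over IgG, WT had a log2 ratio of 0.67 (0.56 to 0.78) and A159V one of 0.54 (0.44 to 0.64). In T-like cells it was at 343 CPM and 582 in WT tumors given IgG and anti-PD1, and 314 and 418 in A159V tumors, with ratios of 0.76 (0.67 to 0.86) and 0.41 (0.26 to 0.55), which differed by 0.35 (0.18 to 0.53). By cluster it was highest in the Cd8a and Ifng cluster (cluster 11), at 500.1 CPM with IgG and 867 with anti-PD1 in WT tumors and 452 and 555 in A159V tumors. In the Tcf7 and Lef1 cluster (cluster 6) it was at 316 CPM (IgG) and 516 (anti-PD1) in WT and 319 and 450.2 in A159V, and in the Foxp3 cluster of regulatory genes (cluster 14) at 111 CPM and 172 in WT tumors given IgG and anti-PD1, and 143 and 116 in A159V tumors. In all 3 the WT anti-PD1 library was highest.

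B4galnt1 in NK-like cells was at 133 CPM with IgG and 269 with anti-PD1 in WT tumors and 126 and 144 in A159V tumors. WT anti-PD1 stood alone above the other 3 libraries, with a log2 ratio of 1.02 (0.76 to 1.28) over WT IgG, against 0.19 (-0.06 to 0.44) for the A159V pair. In T-like cells its level was 107 CPM (IgG) and 222 (anti-PD1) in WT and 71.9 and 109 in A159V, with ratios of 1.05 (0.88 to 1.21) and 0.59 (0.30 to 0.88). In cluster 11 it was at 135 CPM and 267 in WT tumors given IgG and anti-PD1, and 88.7 and 156 in A159V tumors and in cluster 6 at 116 CPM with IgG and 249.6 with anti-PD1 in WT tumors and 82.2 and 106 in A159V tumors. The Foxp3 cluster was lower, at 43.6 CPM (IgG) and 69.4 (anti-PD1) in WT and 28.6 and 33.8 in A159V.

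These ratios stand beside a broad difference between the WT libraries. In NK-like cells of WT anti-PD1 over WT IgG, 5 members were past 1.5-fold higher and 1 lower, where 37.3% and 14.7% of genes were, and the median of all genes tested was itself 0.34. In T-like cells 4 were higher and 0 lower, where 23.3% and 14.8% were, with a median of all genes of 0.22. With median-of-ratios scaling, B4galnt1 was at 0.75 in NK-like and 0.85 in T-like cells, and Ugcg at 0.40 and 0.57. For A159V anti-PD1 over A159V IgG the same scaling gave 0.06 and 0.57 for B4galnt1 and 0.41 and 0.39 for Ugcg, so the T-like ratios of Ugcg lay closer together than without it. In the A159V pair 0 members were past 1.5-fold in NK-like cells, where 12.2% of genes were higher and 6.36% lower, and 1 was higher and 0 lower in T-like cells, where 6.22% and 7.36% were. Stromal markers summed to 669 CPM in NK-like and 655 CPM in T-like cells of WT anti-PD1, against 31.4 to 59.4 and 37.8 to 78.9 CPM in the other libraries, and their part in these ratios was not tested. Between A159V IgG and WT IgG, T-like cells had 0 members past 1.5-fold, where 9.07% of genes were higher and 4.04% lower, and NK-like cells had 1 higher, B4galt6 at 0.62 (0.10 to 1.13), and 0 lower, where 9.89% and 9.37% were.

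Cell by cell at 1500 UMIs, Ugcg was in 71.9% of NK-like cells of WT IgG, 81.96% of WT anti-PD1, 63.97% of A159V IgG and 77.99% of A159V anti-PD1. In tumor-like cells of the libraries with at least 50 of them, it was in 3.24% to 4.03%. B4galnt1 was in 12.8%, 27.4%, 10.8% and 13.8% of T-like cells in the same order, against 0.556% to 2.80% of stromal-like cells. Ugcg was in 32.97%, 48.8%, 32.7% and 38.6% of T-like cells. Both shares were highest in WT anti-PD1. Median depths before thinning were 1652.5 to 3062 UMIs in T-like and 3214 to 3900 in NK-like cells.

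**Figure D5:**
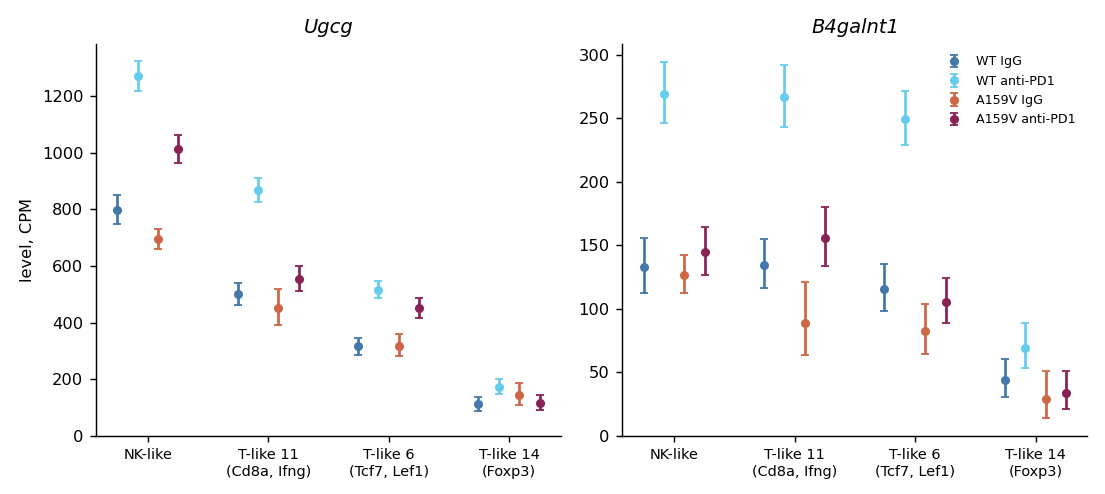
Level (CPM) of Ugcg and B4galnt1 in NK-like cells and in the T-like clusters in each of the 4 libraries, with exact 95% Poisson intervals. WT anti-PD1 is the highest library for both genes in every cell group drawn.

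In macrophage-like cells the WT ratios of B4galt6, B4galnt1, St8sia1 and St3gal1 for anti-PD1 over IgG varied with the cluster. Those of B4galt6 and B4galnt1 lay above 0 within each of 4 clusters, but the B4galt6 intervals reached 0 in clusters 4, 5 and 7. Clusters 3, 4 and 7 rest on 109, 134 and 105 cells of WT anti-PD1. B4galt6, the second lactosylceramide synthase, was at 52.01 CPM and 128 in WT tumors given IgG and anti-PD1, and 51.4 and 72.6 in A159V tumors, a log2 ratio of 1.28 (1.13 to 1.43) for anti-PD1 in WT and 0.49 (0.31 to 0.67) in A159V. In cluster 5, which held most macrophage-like cells of WT anti-PD1, it was at 123 CPM with IgG and 136 with anti-PD1 in WT tumors and 180.2 and 172 in A159V tumors, a WT ratio of 0.14 (-0.20 to 0.49). The WT ratio was 0.14 (-0.34 to 0.62) in cluster 4 (C1qa, C1qb), 0.55 (-0.01 to 1.10) in cluster 7 (Mmp13, Gpnmb) and 1.56 (0.94 to 2.18) in cluster 3 (Lyz2, Chil3). B4galnt1 was at 30.5 CPM (IgG) and 50.8 (anti-PD1) in WT and 24.7 and 25.6 in A159V, and its WT ratio of 0.72 (0.52 to 0.92) was 0.66, 0.97, 0.81 and 1.58 within clusters 3, 4, 5 and 7.

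St8sia1 in macrophage-like cells was at 16.8 CPM and 7.98 in WT tumors given IgG and anti-PD1, and 13.2 and 6.13 in A159V tumors, lower in both anti-PD1 libraries, with log2 ratios of -0.99 (-1.35 to -0.63) and -0.99 (-1.40 to -0.58). Within clusters 3 and 5 the WT ratio was instead 0.09 (-1.11 to 1.30) and 1.75 (-0.07 to 3.58). The transcript was most frequent in cluster 2 (Chil3, Ifit2), at 35.2, 31.4 and 18.3 CPM in WT IgG, A159V IgG and A159V anti-PD1, and that cluster held 15 cells in WT anti-PD1. St3gal1 was at 180.3 CPM with IgG and 118 with anti-PD1 in WT tumors and 165 and 176 in A159V tumors, a WT ratio of -0.61 (-0.71 to -0.50), which was 0.23 (-0.10 to 0.55) in cluster 4 and -1.06 (-1.33 to -0.80) in cluster 5. Sptlc1 was at 24.7 CPM (IgG) and 29.1 (anti-PD1) in WT and 19.7 and 30.2 in A159V, with an A159V ratio of 0.60 (0.31 to 0.88). Over WT IgG, WT anti-PD1 had 2 members past 1.5-fold higher and 2 lower, where 20.5% and 14.6% of genes were, A159V anti-PD1 over A159V IgG had 1 and 1, where 3.4% and 2.65% were, and A159V IgG over WT IgG had 0 and 0, where 2.68% and 3.32% were. Stromal markers summed to 708 CPM in macrophage-like cells of WT anti-PD1 against 44.3 to 80.1 CPM in the others, and their part was not tested.

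Dendritic-like cells held the ganglioside sialyltransferases St3gal5 and St8sia1 at their highest levels, though the St3gal5 range of neutrophil-like cells overlapped theirs. St3gal5 was at 41.7 CPM and 94.1 in WT tumors given IgG and anti-PD1, and 63.9 and 45.8 in A159V tumors, and the log2 ratios of anti-PD1 over IgG, 1.16 (0.75 to 1.56) for WT and -0.47 (-0.95 to 0.00) for A159V, lie on opposite sides of 0, though the A159V interval reaches it. St8sia1 was at 79.3 CPM with IgG and 69.5 with anti-PD1 in WT tumors and 101 and 48.8 in A159V tumors, with ratios of -0.19 (-0.53 to 0.16) and -1.04 (-1.45 to -0.62). When cells were assigned by a gate on marker UMIs in place of clusters, the St8sia1 ratios were 3.21 in WT and 0.96 in A159V, both on the other side of 0. B4galnt1 was at 45.7 CPM (IgG) and 91.8 (anti-PD1) in WT and 48.4 and 41.03 in A159V, with ratios of 0.99 (0.60 to 1.38) and -0.23 (-0.76 to 0.29). With the gate these were 2.07 and 0.17, and the WT ratio of St3gal5 was 2.94. Over WT IgG, 4 members were past 1.5-fold higher in WT anti-PD1 and 0 lower, where 28.2% and 13% of genes were. In the A159V pair 0 were higher and 1 lower, where 12.2% and 12.7% were, and between the IgG libraries 1 was higher, St3gal5 at 0.60 (0.11 to 1.10), and 0 lower, where 13% and 11.6% were. The class joins cluster 12 (Cd209a, Mgl2) and cluster 16 (Ccl22, Ccr7). Cluster 16 held 28.2% of it in A159V IgG, against 16.0% in WT IgG, 17.6% in WT anti-PD1 and 16.7% in A159V anti-PD1. The part of this mix in the ratios was not tested.

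Stromal-like cells, which express collagens and Dcn, were rich in Ugcg, at 402 CPM and 354 in WT tumors given IgG and anti-PD1, and 343 and 494 in A159V tumors. For anti-PD1 over IgG, WT had a log2 ratio of -0.18 (-0.28 to -0.08) and A159V one of 0.53 (0.38 to 0.67). The WT ratio of Ugcg was on the other side of 0, at 1.97, when each library was clustered on its own, and at 0.20 with the marker gate. St3gal1 was at 79.97 CPM with IgG and 191 with anti-PD1 in WT tumors and 69.2 and 91.5 in A159V tumors, so WT anti-PD1 stood alone above the others, with a ratio of 1.24 (1.03 to 1.46), and 1.36 (1.11 to 1.60) within cluster 10 (Clec3b, Pi16), and the ratio was 2.50 when each library was clustered on its own. St3gal2 was at 80.9 CPM (IgG) and 114 (anti-PD1) in WT and 57.5 and 96.4 in A159V, with ratios of 0.49 (0.28 to 0.71) and 0.74 (0.40 to 1.07). B4galt5 was at 224 CPM and 155 in WT tumors given IgG and anti-PD1, and 186 and 197 in A159V tumors. Over WT IgG, WT anti-PD1 had 3 members past 1.5-fold higher and 0 lower, where 16.9% and 13.6% of genes were, the A159V pair had 2 and 0, where 10.5% and 12.2% were, and the IgG pair 0 and 0, where 10% and 7.08% were. All comparisons of a class share libraries with each other, as A159V IgG and WT IgG each enter a pair of them.

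Neutrophil-like cells gave few UMIs (152150 in WT IgG, the smallest), so levels of the members there carry wide intervals. Ugcg was at 59.2 CPM (27.05 to 112) with IgG and 269.8 (238 to 305) with anti-PD1 in WT tumors and 100.2 (60.3 to 156) and 135 (97.9 to 182) in A159V tumors. WT anti-PD1 was the highest of the 4, and the intervals of the A159V libraries overlapped. A159V IgG over WT IgG had 7 members past 1.5-fold higher and 0 lower, where 46.4% and 22.9% of genes were. Of these, Sptlc1, St3gal2, St8sia1 and B4galnt1 were each at 6.57 CPM in WT IgG, which is 1 UMI. The minimum of 5 CPM thus left out no detected gene in that library, and these calls rest on 1 UMI there. WT anti-PD1 over WT IgG had 3 and 3, where 30.4% and 35.9% were, and the A159V pair 1 and 5, where 20.7% and 44.9% were.

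Other enzymes of sphingolipid metabolism gave context from a list of 66 further genes. In tumor-like cells 41 of them passed the minimum level, and between A159V IgG and WT IgG 2 were past 1.5-fold higher and 8 lower, where 5.94% and 12.3% of all genes were, with a median of -0.05. The higher genes were Smpdl3b, a membrane-anchored phosphodiesterase of the acid sphingomyelinase family, which went from 10.3 to 34.5 CPM, a log2 ratio of 1.66 (1.54 to 1.77), and Sgpp1, a sphingosine-1-phosphate phosphatase, which went from 11.9 to 22.05 CPM, a log2 ratio of 0.83 (0.72 to 0.95). Both were past 1.5-fold in all 3 tumor-like clusters, at 1.27 to 1.497 and 0.75 to 0.95.

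Among the lower genes, sphingomyelin synthesis was represented by both of its synthases. Sgms2 went from 62.4 to 34.6 CPM, a log2 ratio of -0.83 (-0.90 to -0.76), and lay between -1.06 and -0.70 within clusters, past 1.5-fold in all 3. Sgms1 went from 16.8 to 8.41 CPM, a log2 ratio of -0.92 (-1.04 to -0.79), but lay between -0.58 and 0.28 within clusters, past 1.5-fold in 0 of 3. The sialyltransferases St3gal3 and St3gal4 went from 18.6 to 9.75 CPM, a log2 ratio of -0.87 (-0.99 to -0.75) and from 38.7 to 21.6 CPM, a log2 ratio of -0.81 (-0.89 to -0.73), and were past 1.5-fold in 0 and 1 clusters.

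The degrading enzymes followed. Smpd2, a neutral sphingomyelinase, went from 7.22 to 2.07 CPM, a log2 ratio of -1.42 (-1.60 to -1.24), and was past 1.5-fold in 1 cluster, cluster 9. Its ratio was -0.46 in cluster 0 and -0.97 (-1.40 to -0.55) in cluster 1. In cluster 1 its level was 4.79 CPM in WT IgG, under the minimum. Arsa, which removes sulfate from sulfatide, went from 19.7 to 10.4 CPM, a log2 ratio of -0.87 (-0.98 to -0.75), and was past it in 1 cluster. Asah2, a neutral ceramidase, went from 13.8 to 8.33 CPM, a log2 ratio of -0.67 (-0.80 to -0.54), and Sgpl1, sphingosine-1-phosphate lyase, went from 57.6 to 37.97 CPM, a log2 ratio of -0.59 (-0.65 to -0.52), and both were past it in 0 clusters. So 3 of these 10 genes (Smpdl3b, Sgpp1 and Sgms2) differed past 1.5-fold within every tumor-like cluster. The other 7 passed both the ratio and the minimum level in at most 1. Under anti-PD1 in A159V, 0 of the 39 list genes past the minimum were past 1.5-fold in either direction, with a median of 0.13. Of all genes tested there, 0.674% were higher and 0.545% lower. In macrophage-like cells of WT anti-PD1 over WT IgG, 25 of 44 list genes past the minimum were higher and 3 lower, where 20.5% and 14.6% of all genes were. Cluster 5 held 81.0% of these cells in WT anti-PD1 and 4.07% in WT IgG, and the part of this mix was not tested. In NK-like cells the counts were 20 and 1 of 43, where 37.3% and 14.7% of all genes were. In T-like cells they were 11 and 3 of 47, where 23.3% and 14.8% were, so the higher count was near the share of all genes.

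Across the 30 profiles of at least 50 cells, the members did not share a single pattern. The highest correlation of log2 levels between a pair was 0.69 for St3gal1 and St3gal5, followed by 0.58 for B4galt5 and B4galnt1, and the lowest was -0.45 for Ugcg and St3gal5. Profiles of a class in different libraries are alike and profiles of a library share its depth, so these values are descriptions only. Among 14023 genes, those most like B4galt5 were Calhm6 (r = 0.81), Plac8 (0.81) and Ccr2 (0.80), and those most like St3gal1 were Sirpa (0.89), Slc8a1 (0.85) and Apba1 (0.85). Ugcg was most like Kif13b (0.87), Pdcd4 (0.84) and Thy1 (0.84), B4galnt1 most like Traf3ip3 (0.91), Ptpn7 (0.90) and Plekha2 (0.90), and St8sia1 most like Pcgf5 (0.87), Ildr1 (0.87) and Phlpp1 (0.86). St3gal2 was closest to Sox4 (0.88), St3gal5 to Atrnl1 (0.90), Sptlc1 to Sil1 (0.89), Sptlc2 to Ahnak (0.85) and B4galt6 to Itga5 (0.81).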

How the data were processed

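Single-cell 3′ libraries of CD45+ and CD45− cells of 4 tumors' groups were made with 10x chemistry. The deposited matrices hold raw UMI counts per gene and barcode, whole numbers with introns included. The authors made them with Cell Ranger (version 7.2.0 per the file headers, 5.0.1 per the processing notes) on mm10. The study's later steps against ambient RNA and doublets are not in these counts. Totals were 54402632 to 125227747 UMIs per library.

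Barcodes with over 500 genes were kept, and predicted doublets (374 to 631 per library, from 2 simulated doublets per cell and an expected 0.8% per 1000 cells) were removed. Counts were scaled to 10000 per cell, logged and reduced to 20 principal components of 2000 variable genes. The members, the other listed pathway genes and mitochondrial genes were left out of the variable genes. Leiden clusters (20 neighbors, resolution 1) of all libraries together were named by the marker list with the highest score, using lists with at least 3 markers detected in 10% of cells, a condition added after a first result was seen. Cluster 19 was led by both pericyte (Rgs5) and mast cell (Cpa3) genes and is not named. UMIs were summed per class and library and given as CPM, counts per 1000000 of that sum. Classes under 50 cells gave no ratio. There was 1 library per group, so no test was run and no p-value is given, and 95% intervals (exact Poisson, exact binomial, delta method for ratios) cover counting error only. Named pathway genes were those at 5 CPM or more and past 1.5-fold in tumor-like cells for A159V IgG over WT IgG, and named like genes the 3 of highest Pearson correlation per member among genes at 10 CPM or more in 1 profile. The members, gene lists, markers and comparisons were chosen with earlier results of these data known. The procedure was tested on simulated data.

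Alternatives were a minimum of 1000 genes, a 10% mitochondrial limit, doublets kept, resolutions 0.4 and 2, separate clustering, a marker gate, median-of-ratios scaling, equal weight per cell, a pseudocount of 0.1 CPM in place of 1, no minimum level, other thinning depths, and leaving out tumor-like cells with stray UMIs. Single clusters and thinning to 20000 UMIs were added after the data were seen. Promoters came from RefSeq (GRCm38.p6). Member windows on chromosome 18, where B4galt6 lies, and entries not of the full length were not used. A window was used for 6 of 10 members. Python 3.11.15, numpy 2.4.6, scipy 1.17.1, pandas 2.3.3, igraph 0.11.9, leidenalg 0.10.2 and matplotlib 3.10.9 were used.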

Additional observations from a re-analysis of the deposited data

Results flagged for a closer look

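In 3 cases the log2 ratios of anti-PD1 over IgG lay on opposite sides of 0 in WT and A159V and neither ratio's own counting interval reached 0. Other ratios on opposite sides, where at least 1 of the intervals reached 0, are not counted here. There is 1 library per group, so the difference between the genotypes was not tested. Ugcg in stromal-like cells had a log2 ratio of anti-PD1 over IgG of -0.18 in WT and 0.53 in A159V, a difference (WT minus A159V) of -0.71. Sptlc2 in the same cells had ratios of -0.21 and 0.27, a difference of -0.48. St3gal1 in dendritic-like cells had ratios of -0.25 and 0.53, a difference of -0.79. None of the 3 WT ratios kept its side of 0 under every alternative: over the alternatives Ugcg ran from -0.25 to 1.97 and Sptlc2 from -0.46 to 0.21 in stromal-like cells, with the highest value when each library was clustered on its own, and St3gal1 ran from -0.43 to 2.17 in dendritic-like cells, with the highest value under the marker gate. WT anti-PD1 held 1583 stromal-like cells against 143 to 182 in the other libraries, and the part of this in the differences was not tested.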

How the results depend on the processing

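In tumor-like cells, over 11 alternative settings, A159V IgG over WT IgG gave log2 ratios of 0.32 to 0.88 for B4galt5, 0.17 to 0.68 for St3gal1, -0.73 to -0.58 for Sptlc1 and -0.54 to -0.42 for B4galnt1. The ratios of Sptlc2 (-0.19 to 0.21), St3gal2 (-0.27 to 0.12) and B4galt6 (-0.08 to 0.30) lay on both sides of 0. Members past 1.5-fold higher numbered 2 in place of 0 when each library was clustered on its own and 2 with the marker gate, which also moved the members' median from 0.06 to 0.17. Members past it lower numbered 0 in place of 1 without tumor-like cells holding stray UMIs. Members past it higher for A159V anti-PD1 over A159V IgG numbered 0 in place of 1 with doublets kept and 0 with median-of-ratios scaling. The share of all genes under these settings is not given, and the causes were not tested. The other 64 recomputed values for the counts and medians in tumor-like cells were alike. Of the values for single members, 2669 were alike, 411 moved beyond their interval and 10 values past 1.5-fold changed sides, while values nearer 0 that crossed it are counted among the others. With doublets kept, neutrophil-like ratios were -0.14 for Sptlc1 (A159V IgG over WT IgG), and 0.055 for Sptlc2 and 0.88 for B4galt6 (A159V anti-PD1 over A159V IgG). With the gate, the last was 0.23 and St8sia1 in dendritic-like cells 0.96 in the same comparison. With equal weight per cell, St3gal2 in neutrophil-like cells was 0.11 for WT anti-PD1 over WT IgG. Within single macrophage-like clusters, St8sia1 was 0.092 (cluster 3) and 1.75 (cluster 5) and St3gal1 0.23 (cluster 4) for WT anti-PD1 over WT IgG, and St8sia1 0.82 (cluster 5) for A159V anti-PD1 over A159V IgG. No paired analysis was possible because each group has 1 library. The 45 tumor-like cells of WT anti-PD1 gave no ratio, and the order of their levels beside the other libraries is a description only.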
